A study of Mus musculus with 12 samples.

Results

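Heavy chain variable segments outside the Ighv1 family were followed here through immune B cells of the mouse. The members were all genes of the count table whose identifier maps to a symbol starting with Ighv but not with Ighv1-, which gave 60 of the 120 Ighv segments counted and 60 of the 27179 genes of the table. They belonged to 15 families, Ighv2 to Ighv16. Ighv5 and Ighv8 had 10 members each, Ighv2 had 9, Ighv3 had 6, Ighv6 had 5, Ighv9 and Ighv14 had 4 each, and the other families had 1 or 2. The other 60 segments were of Ighv1.

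RNA with poly(A) tails was sequenced from 12 pools of C57BL/6 mice, in 6 groups of 2 pools, and all mice had been immunised with NP-KLH, a hapten on a carrier protein. Germinal centre (GC) B cells of the Myb experiment were taken on day 12 from Myb fl/fl mice without cre (control, pools of 3 and 2 mice) and from Myb fl/fl CD23-cre T/+ mice (knockout, pools of 2 and 3). Plasmablasts (PB) of the same 2 genotypes were taken 5 days after a second immunisation (control pools of 6 and 7 mice, knockout pools of 5 and 4). GC B cells of the Moz experiment were taken on day 7 from AID-cre T/+ mice (control, a pool of 6 and a pool whose unclear label was read as 5) and from Moz fl/fl AID-cre T/+ mice (knockout, pools of 6 and 8). In the Myb experiment the controls carried no cre, so cre and loss of Myb cannot be told apart, whereas both Moz groups carried AID-cre. CD23-cre is active from the mature B cell onwards and AID-cre from B cell activation onwards. Groups are called by their labels: gene counts of Myb (14.0 and 11.5 CPM in control GC pools, 13.0 and 11.6 in knockout pools; 4.13 and 4.64 in control PB, 3.11 and 3.10 in knockout PB) and of Kat6a, the gene of Moz (82.0 and 73.4 in control, 66.4 and 93.7 in knockout pools), did not separate the genotypes in GC cells, and counts summed over a whole gene cannot show the loss of single exons.

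An antibody heavy chain gene is assembled in each B cell by joining a variable (V), a diversity and a joining segment, so a B cell and its descendants transcribe mainly the V segment they chose. The V segment encodes most of the antigen-binding domain, and segments are put into families by sequence similarity. Ighv1 is the largest family in C57BL/6 mice, and Ighv1-72 (V186.2) is the segment best known from their response to NP. GC B cells divide and mutate their V genes, whereas plasmablasts make antibody mRNA in bulk. Counts of a segment therefore mix how many cells use it with how much mRNA each makes, and in these bulk samples fewer cells of a type and less RNA per cell cannot be told apart.

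All 60 members lay on chromosome 12 of the mm10 build, within 113578504 to 116009954, the span of the Ighv genes counted. Of the members, 49 lay before the first Ighv1 segment (114487136), that is, on the side of the diversity segments, and 11 lay among the Ighv1 segments, 9 of these being of Ighv8. All 60 are annotated as V segments in RefSeq (GRCm38.p6). The coding part of the longest exon, which holds the V region, could be compared for all 60 members in the GENCODE annotation of the same build. A member and its closest relative in the table were identical in a median of 93.8% of bases, 27 members had a relative with at least 95% identity, and none was identical to another. The sources used here do not give how reads matching several segments were counted, so the split of counts between close relatives is uncertain.

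The last 300 coding bases of the V exon, from the GENCODE transcripts, are printed for 4 segments on which the results turn, 5′ to 3′ on the minus strand of chromosome 12. Ighv14-3 (chr12:114059845-114060144) was the member with the largest share, and Ighv14-2 (chr12:113994469-113994768) was the other abundant segment of its family. Ighv5-4 (chr12:113597446-113597745) was called in the Myb GC comparison, and Ighv2-2 (chr12:113588267-113588566) had the largest fitted change in knockout plasmablasts. Capitals mark the bases that differ from a relative: 13 of 300 between Ighv14-3 and Ighv14-2, 14 of 300 between Ighv5-4 and Ighv5-6, and 6 of 300 between Ighv2-2 and Ighv2-4.
Ighv14-3: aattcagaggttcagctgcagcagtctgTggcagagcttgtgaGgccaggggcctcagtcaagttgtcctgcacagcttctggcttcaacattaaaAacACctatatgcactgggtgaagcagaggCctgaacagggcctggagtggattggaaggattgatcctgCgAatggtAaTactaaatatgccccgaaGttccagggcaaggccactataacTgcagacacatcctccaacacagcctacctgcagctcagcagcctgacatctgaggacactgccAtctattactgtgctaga
Ighv14-2: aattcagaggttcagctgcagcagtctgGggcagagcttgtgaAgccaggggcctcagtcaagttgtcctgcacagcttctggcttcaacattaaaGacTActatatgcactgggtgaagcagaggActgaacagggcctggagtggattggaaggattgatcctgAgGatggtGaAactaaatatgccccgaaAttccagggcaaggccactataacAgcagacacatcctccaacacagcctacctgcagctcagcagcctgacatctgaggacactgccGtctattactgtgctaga
Ighv5-4: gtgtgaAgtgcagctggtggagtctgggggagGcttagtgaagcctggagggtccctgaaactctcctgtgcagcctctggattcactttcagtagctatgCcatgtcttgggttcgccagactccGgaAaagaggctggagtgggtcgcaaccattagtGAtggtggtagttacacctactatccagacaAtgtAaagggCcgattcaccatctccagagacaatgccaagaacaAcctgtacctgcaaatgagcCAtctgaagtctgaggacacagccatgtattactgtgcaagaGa
Ighv2-2: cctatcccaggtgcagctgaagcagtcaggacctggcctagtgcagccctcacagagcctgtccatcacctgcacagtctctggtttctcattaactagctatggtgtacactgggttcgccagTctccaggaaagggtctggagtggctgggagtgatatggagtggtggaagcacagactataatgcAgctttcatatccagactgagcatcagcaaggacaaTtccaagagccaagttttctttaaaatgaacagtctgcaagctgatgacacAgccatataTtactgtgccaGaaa

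Libraries held 8285934 to 24801297 counts, and the part of them in Ighv segments differed widely. Ighv counts made up 0.0622% and 0.0614% of the counts in Myb control GC pools, 0.172% and 0.130% in Myb knockout GC pools, 0.226% to 0.449% in Moz pools, and 2.56% to 4.57% in plasmablast pools. A Myb control GC pool thus rested on 5487 or 5088 Ighv counts in all, against 549990 to 928354 in plasmablast pools. In Myb control GC pools 39 and 34 members had 10 counts or more, so statements on rare members there are the least precise. Markers fitted the labels. Bcl6, the transcription factor of GC B cells, had 67.9 to 139 CPM in GC pools and 0.753 to 2.21 in PB pools, and S1pr2, a receptor that keeps B cells in the GC, had 199.8 to 349.6 and 13.7 to 18.4. Summed over 8 plasmablast genes (Prdm1, Jchain and others), GC pools had 1247 to 8238 CPM and PB pools 109038 to 148919. Summed T cell markers stayed between 3.11 and 8.35 CPM in all pools, myeloid markers between 6.03 and 64.1, and of 5 markers of NK and plasmacytoid dendritic cells only Bst2 was above 1 CPM in any pool (11.7 to 32.2 in GC and 155 to 335 in PB pools); Ncr1 was at 0 in the 4 PB pools.

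Members held about as many counts as Ighv1 in most pools. Their share of all Ighv counts was 49.3% and 54.9% in Myb control GC pools (52.1 ± 4.00%, SD, n = 2) and 49.7% and 49.1% in Myb knockout GC pools (49.4 ± 0.391%). Moz control pools had 48.4% and 69.6% and Moz knockout pools 59.9% and 67.8%, so both Moz groups overlapped and control pool 2 had the highest share of all. In plasmablasts the share was 45.6% and 38.4% in control and 55.5% and 51.3% in knockout pools, where the groups did not overlap. With 2 pools against 2, an exact permutation test cannot go below p = 0.333, so shares were described and not tested.

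**Figure D1:**
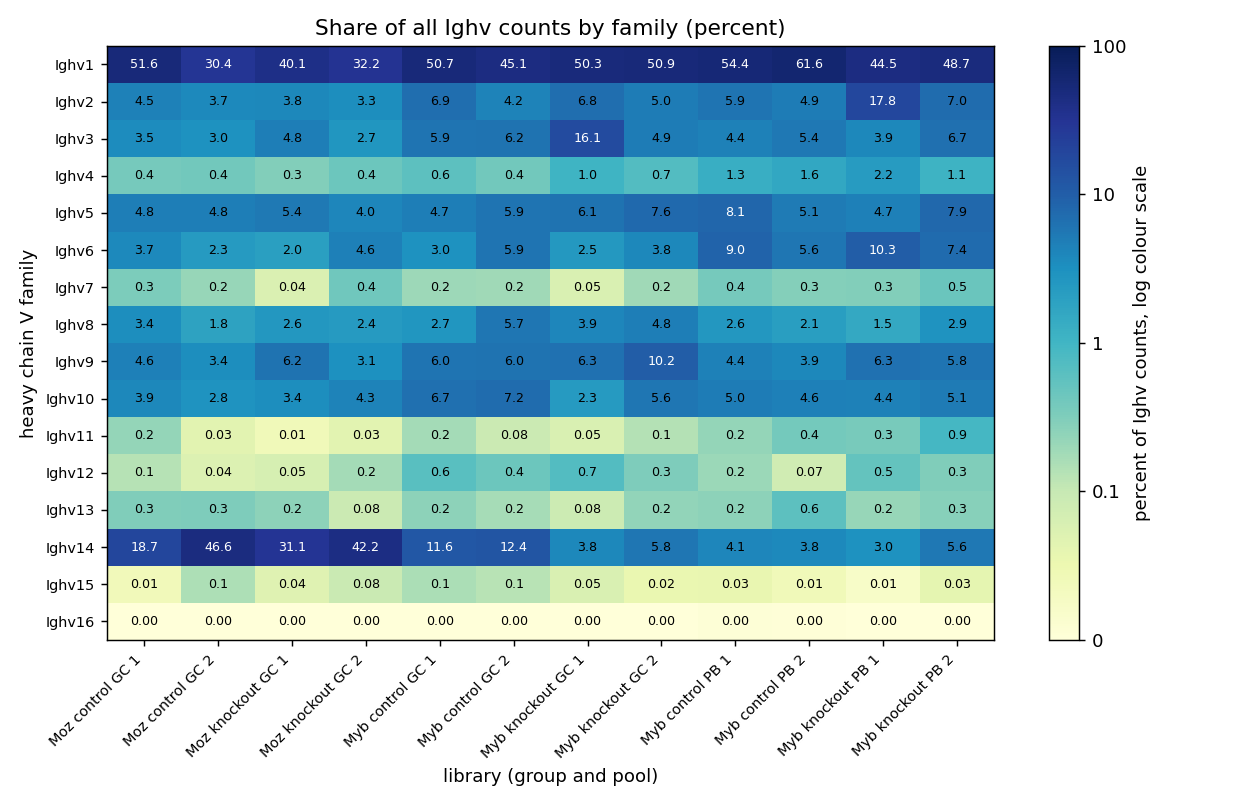
Share of all Ighv counts, in percent, held by each V family (rows) in each of the 12 libraries (columns, 2 pools per group), on a logarithmic colour scale. Ighv1 holds the largest share in most libraries, and Ighv14 is at 11.6% and 12.4% in Myb control GC pools and at 18.7% to 46.6% in the Moz pools.

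Ighv14 set the Moz pools apart from the others. Its 4 members together held 18.7% and 46.6% of Ighv counts in the Moz control group, and 31.1% and 42.2% in the group labelled Moz knockout. The same family held 11.6% and 12.4% in Myb control GC pools, 3.79% and 5.77% in Myb knockout GC pools, and 2.99% to 5.58% in plasmablast pools. Day of sampling, cre, genotype and experiment date all differ between the Moz and Myb experiments and cannot be told apart. Leaving Ighv14-3 out of all sums, the members' share was 39.1% and 49.2% (Moz control) and 43.8% and 48.5% (Moz knockout), against 45.1% and 50.7% in Myb control GC pools.

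Ighv14-3 was the most abundant member. The Moz pools gave it 15.2% and 40.2% (control) and 28.5% and 37.4% (knockout) of all Ighv counts, against 7.62% and 8.53% in Myb control GC pools and 1.86% and 2.31% in Myb knockout GC pools. In plasmablasts it held 2.57% and 2.27% in control and 1.88% and 3.33% in knockout pools. Every Moz pool was thus above every Myb pool, and the Myb control GC pools were above the remaining 6. Ighv14-2 held 2.20% and 5.59% (Moz control), 1.64% and 3.72% (Moz knockout), 2.92% and 2.99% in Myb control GC and 1.33% and 1.75% in Myb knockout GC pools, and 0.520% to 0.931% in plasmablasts. The comparator Ighv1-72 ranked between 67.5 and 97.5 of the 120 segments in GC pools (ties averaged). It held 0.0968% and 0.0769% of Ighv counts in Moz control and 0.237% and 0.275% in Myb control GC pools. In control plasmablasts it reached 0.484% and 0.511%. Knockout pools gave it 0.0939% and 0.0592% (Moz), 0.0761% and 0.0416% (Myb GC) and 0.0712% and 0.0834% (plasmablasts).

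**Figure D2:**
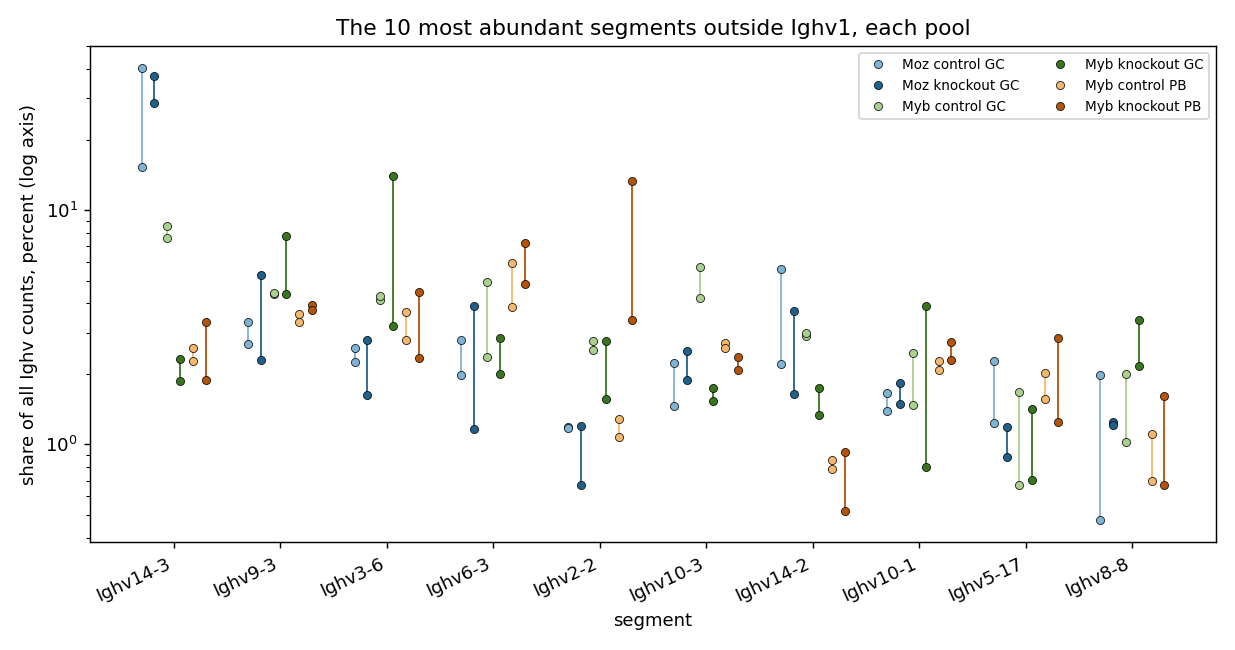
Share of all Ighv counts (percent, logarithmic axis) for the 10 members with the highest mean share over the 6 groups; each dot is a pool, and a line joins the 2 pools of a group. Ighv14-3 spans 1.86% to 40.2%, whereas Ighv9-3 stays between 2.28% and 7.73%.

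The next most abundant members came from 7 further families. Ighv9-3 was the steadiest of them: it held 2.68% to 3.35% in Moz control pools, 4.37% and 4.42% in Myb control GC pools and 3.34% and 3.60% in control plasmablasts. Ighv3-6 held 4.12% and 4.28% in Myb control GC pools, and 13.9% in 1 Myb knockout GC pool against 3.20% in the other. Ighv6-3 was the leading member in control plasmablasts (5.94% and 3.86%), and Ighv10-3 came second to Ighv14-3 in Myb control GC pool 2 (5.74%). Ighv10-1, Ighv5-17 and Ighv8-8 held 0.477% to 3.89% in all pools.

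Small families were measurable but rare. Ighv4-1, the only Ighv4 member, held 0.292% to 2.23%. Ighv11-2 and Ighv12-3, segments known from B-1 cells that bind phosphatidylcholine, held 0.00854% to 0.896% and 0.0429% to 0.696%. Ighv7-4, Ighv13-2 and Ighv15-2 led their families and reached at most 0.395%, 0.588% and 0.146% of Ighv counts in any pool. Ighv16-1 had 7 and 3 counts in control plasmablasts and 0 in the other 10 pools. This segment and Ighv8-14 did not pass the filter on low counts, so tests covered 58 of the 60 members and 13131 genes in all.

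Levels of the members on the TMM scale differed between pools of 1 group by more than those of genes at large. For the 58 tested members the median ratio between the 2 pools of a group, in absolute log2, was 0.47 to 0.80, against 0.25 to 0.37 for all genes tested. Over 59 Ighv1 segments it was 0.31 to 0.87, so a wide spread was not particular to the members. These ratios of levels also hold shifts of the whole Ighv sum, such as 112868 and 65361 CPM in the knockout PB pools. Genes were not matched for counts, so counting error of rare members adds to the ratios. Among members with at least 10 counts in a pool, 11 of 39 differed more than 2-fold in share between Myb control GC pools, 19 of 47 between Myb knockout GC pools, 11 of 59 and 15 of 58 between control and knockout PB pools, and 20 of 53 and 18 of 52 between Moz control and knockout pools. More than 4-fold differences were found for 1 to 5 members a group. The most unequal members included Ighv5-16 in control plasmablasts (4.25% and 0.890%) and Ighv2-7 in Myb knockout GC cells (0 counts and 82 counts).

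**Figure D3:**
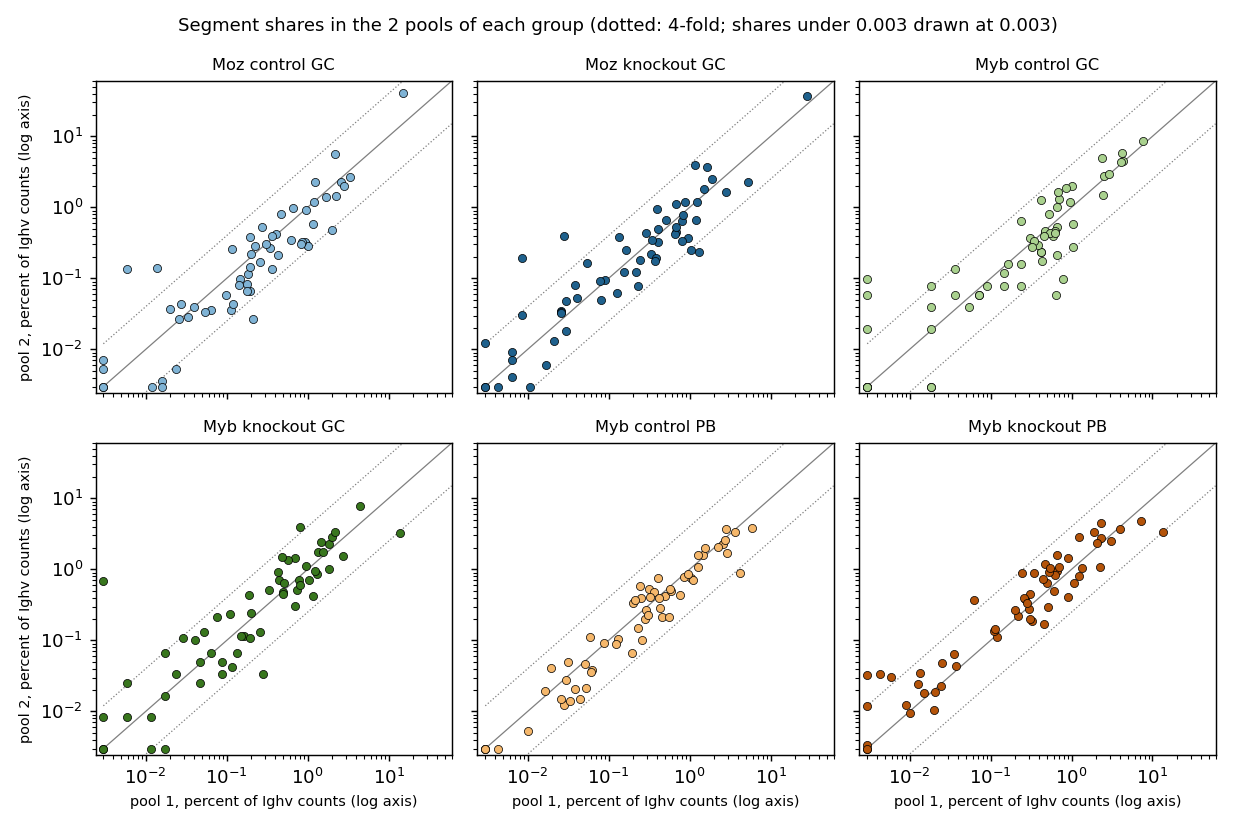
Share of all Ighv counts of each of the 60 members in pool 1 (horizontal) and pool 2 (vertical) of every group, in percent on logarithmic axes; the solid line is equality and dotted lines mark a 4-fold difference. The number of members beyond the 4-fold lines ranges from 1 (control plasmablasts, Ighv5-16) to 5 a group, among those with 10 counts or more in a pool.

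Diversity was summed up as the effective number of members, the exponential of the Shannon entropy of their counts, which is 60 if all were used equally. It was 25.3 and 22.3 in Myb control GC pools, 20.2 and 25.9 in Myb knockout GC pools, 25.8 and 27.0 in control PB and 19.7 and 28.2 in knockout PB pools. It was lower in Moz pools, with 18.3 and 7.37 in control and 10.9 and 8.42 in knockout pools. Control and knockout overlapped in all 3 settings. The lowest value went with Ighv14-3 at 57.8% of member counts in Moz control pool 2, and the low values of the Myb knockouts went with Ighv3-6 at 28.0% (GC pool 1) and Ighv2-2 at 24.1% (PB pool 1).

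Members were higher in plasmablasts than in GC B cells of control mice. Summed over the members, control GC pools had 189 and 225 CPM after TMM scaling (trimmed mean of M values), and control plasmablasts had 38034 and 26507. Without that scaling the sums were 306.4 and 337.3 CPM in control GC pools and 17093.5 and 10505.8 in control plasmablasts. TMM scaling thus lowered the GC values and raised the plasmablast values, so the size of the rise depends on it. CPM on the TMM scale are not direct parts of a library's counts. All 58 tested members rose (edgeR quasi-likelihood test, adjusted p from 8.05e-08 to 0.00762), where 25% of all genes rose and 28.1% fell. Of the 58, 19 had fewer than 10 counts in both control GC pools and those of them that passed the filter only through pools where they are high had to rise, so the count of 58 is a description. All 60 members had both plasmablast pools above both GC pools, as had 34.4% of all genes, and none had both below, against 41.3%. GC and PB pools share no experiment date and differ in the number of immunisations, so cell type, date and immunisation cannot be told apart.

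Among the 39 members with 10 counts or more in a control GC pool, the rise ran from 4.19 to 9.91 on the log2 scale (edgeR adjusted p at most 0.000398). Ighv8-4 and Ighv8-9 had no count in control GC pools and 385 and 122 counts in control plasmablasts. Against a floor of 3 counts over the group, they were at least 180-fold and at least 56.9-fold higher on the TMM scale. Ighv7-2 had 2 counts against 733 (513-fold on the TMM scale, 95% exact interval for counting error only 141 to 4241). Among the 39, Ighv5-16 (log2 9.91, SE 0.98), Ighv6-6 (9.40, SE 0.77), Ighv4-1 (9.12, SE 0.75), Ighv2-3 (8.80, SE 0.74) and Ighv13-2 (8.58, SE 0.57) had the highest estimates. Their order rests on single pools: without control PB pool 1 Ighv5-16 was at 8.14 and Ighv6-6 at 8.80, without control PB pool 2 Ighv5-16 was at 10.65 and Ighv13-2 at 7.97, and Ighv2-3 was at 9.98 or 8.16 without control GC pool 1 or 2. Ighv2-7, Ighv11-2, Ighv2-4 and Ighv7-4, of the members with fewer GC counts, had fitted values of 8.33 to 9.51 (Ighv2-7 at 8.49 without control PB pool 1). Ighv14-3 rose by less (5.85, SE 0.50), as did Ighv14-2 (5.75, SE 0.59), Ighv2-2 (6.43, SE 0.82) and Ighv10-3 (6.67, SE 0.48).

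Against the Ighv total, which compares segment use rather than amount, the members divided. Scaled to that total, 4 members were higher in plasmablasts (Ighv5-16, 2.23; Ighv6-6, 1.79; Ighv4-1, 1.55; Ighv2-3, 1.21) and 15 were lower. On this scale 96.4% of all genes were lower and 0.137% higher (96.5% in all). Adjustment over all genes therefore hardly changed a p-value. For Ighv2-3 the edgeR p was 0.0306 unadjusted and 0.0318 adjusted, so these calls are little stricter than unadjusted ones. Ighv14-3 (-1.74, SE 0.44, edgeR adjusted p = 0.000873) and Ighv14-2 (-1.84, SE 0.48, edgeR adjusted p = 0.00108) were among the 15. Ighv4 went from 0.583% and 0.393% of Ighv counts to 1.27% and 1.59%. Ighv1, which by definition holds the rest of the Ighv counts, went from 50.7% and 45.1% to 54.4% and 61.6%.

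**Figure D4:**
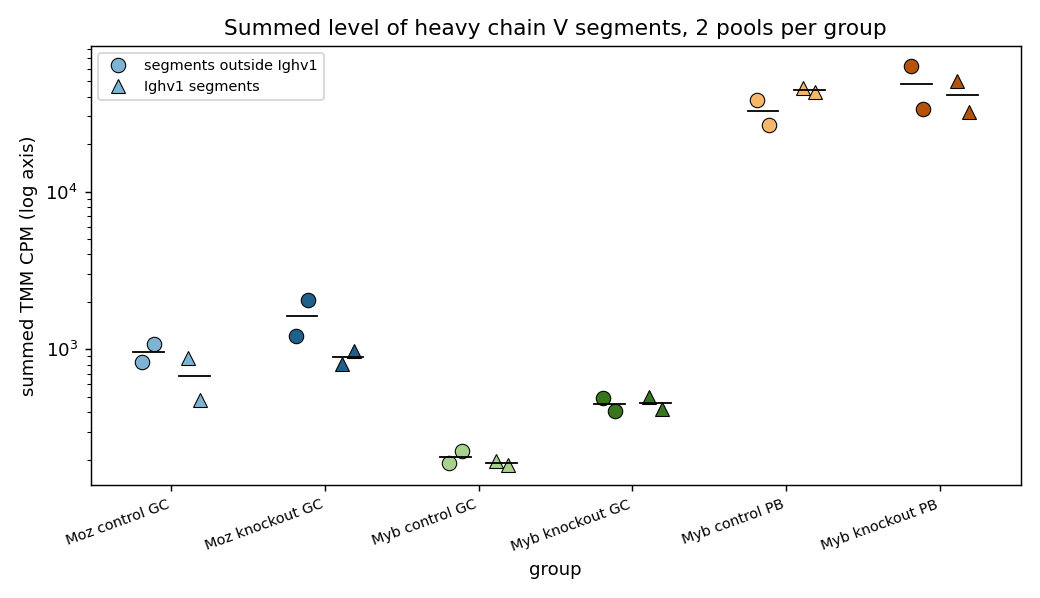
Summed TMM CPM (logarithmic axis) of the 60 segments outside Ighv1 (circles) and of the 60 Ighv1 segments (triangles) in each pool, with the group mean as a bar. The sums are 189 to 2046 for the members in GC pools and 26507 to 62615 in plasmablast pools.

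In GC B cells of Myb knockout mice the summed level of the members was higher, and 1 member passed the test singly. Member CPM summed to 492 and 404 in knockout against 189 and 225 in control pools, a ratio of 2.17 that was 2.61 within the first pair of pools and 1.79 within the second. Ighv1 moved by a similar ratio (2.42), so the members' share stayed near 50%. Of the 58 tested, 47 had an estimate above 0, the median log2 change was 1.17 (0 over all genes), and 22 were higher and 1 lower at an unadjusted p under 0.05, against 4.68% and 1.07% of all genes. For 30 of 60 members both knockout pools were above both control pools and for 4 both were below, against 13.8% and 11.8% of all genes.

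Ighv5-4 was the member that passed adjustment over all genes, and background calls were 0.236% higher and 0.0228% lower (0.259% in all). Its level was 1.82 and 1.85 CPM in control and 14.7 and 19.7 CPM in knockout pools, on 26, 23, 253 and 288 counts, so the groups lay far apart. The log2 change was 3.22 (SE 0.54, edgeR adjusted p = 0.0391). Within the Ighv total its share went from 0.474% and 0.452% to 1.48% and 2.40%. The call did not hold when pools of the same date were blocked (3.21, SE 0.83, edgeR adjusted p = 0.299), nor without any 1 of the 4 pools (edgeR adjusted p from 0.0891 to 0.356, log2 2.99 to 3.42).

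With the date pairs as a block, 4 members rose and Ighv14-3 fell, where 2.03% of all genes rose and 0.396% fell. These names were chosen after their values were seen. Ighv2-9-1 rose from 2.51 and 2.18 to 18.0 and 8.29 CPM (log2 2.44, SE 0.22, edgeR adjusted p = 0.000196; 0.0880 without the block). Ighv9-3 rose from 16.8 and 18.1 to 43.5 and 63.6 CPM (1.59, SE 0.18, edgeR adjusted p = 0.000796; 0.143 without). Ighv3-8 (2.09, SE 0.31, edgeR adjusted p = 0.00696) and Ighv5-17 (1.07, SE 0.19, edgeR adjusted p = 0.0152) also rose. Ighv14-3 fell from 29.2 and 35.0 to 18.4 and 19.0 CPM (-0.77, SE 0.17, edgeR adjusted p = 0.0353; 1.00 without).

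Relative to the Ighv total, the Myb knockout GC pools used Ighv14 and Ighv10 less. Ighv14 held 11.6% and 12.4% of Ighv counts in control against 3.79% and 5.77% in knockout pools, and Ighv10 held 6.69% and 7.21% against 2.33% and 5.64%. Ighv10-3 accounted for most of the latter, with 4.23% and 5.74% against 1.53% and 1.75%, whereas Ighv10-1 overlapped. On this scale the median over the 58 members was -0.02, with 2 called higher (Ighv5-4, 2.06; Ighv2-9-1, 1.25) and 8 lower, against 0.396% and 64.3% of all genes (64.7% in all). Ighv14-3 (-1.95, SE 0.44) and Ighv10-3 (-1.60, SE 0.36), both with an edgeR adjusted p of 0.0178, were among the 8. With so many genes called, adjustment was mild: for Ighv8-2, also among the 8, the edgeR p was 0.0291 unadjusted and 0.0462 adjusted. Ighv4, Ighv5 and Ighv9 held more in both knockout pools than in both control pools, by ratios of 1.79, 1.28 and 1.37.

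Markers of other cells and states were set beside this comparison. The plasmablast sum was 1247 and 2027 CPM in Myb control GC and 1658 and 2418 in knockout pools, so it overlapped. Jchain made up most of this sum (770 and 1266 CPM in control, 1051 and 1537 in knockout pools). Of the 8 genes, 7 had an estimate above 0 and 1 was called: Prdm1, the transcription factor of plasma cell fate, at 3.21 and 4.03 against 21.8 and 14.9 CPM. Xbp1, Irf4 and Sdc1 also had both knockout pools above both control pools, as had 13.8% of all genes. Tnfrsf13b, Tnfrsf17, Mzb1 and Jchain overlapped. The 8 markers had at least 0.342 CPM in every GC pool, and their part in the higher member levels was not tested. Of 8 GC markers, 7 had an estimate below 0 (median -0.26, 0 called), and their sum was 2735 and 2256 CPM in control and 2339 and 2024 in knockout pools. T cell markers summed to 5.10 and 4.43 against 8.35 and 5.89 CPM without overlap, although 3 of the 5 tested had an estimate above 0 (0 called). Myeloid markers summed to 28.3 and 7.66 against 36.6 and 6.03 CPM and overlapped (4 of 6 above 0, 0 called). Bst2 was at 11.7 and 12.2 against 17.9 and 27.1 CPM. Of 6 markers of naive follicular B cells (Fcer2a and others), 3 had an estimate above 0 (median -0.02, 0 called). These summed to 425 and 369 CPM in control and 402 and 206 in knockout pools. Other immunoglobulin genes had medians alike to that of the members: 1.02 over 59 Ighv1 segments (2 called higher), 1.08 over 102 kappa variable segments (4 called higher) and 0.65 over 8 heavy chain constant genes (0 called, 2 at an unadjusted p under 0.05 in edgeR), whereas 6 lambda genes had -0.38 (0 called and 0 at an unadjusted p under 0.05).

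In plasmablasts of Myb knockout mice no member passed adjustment, with or without the block. Plasmablast markers overlapped between the groups, at 109038 and 148919 CPM in control and 118484 and 142798 in knockout pools. At an unadjusted p under 0.05 in edgeR, 8 members were higher and 3 lower, against 2.05% and 1.73% of all genes. DESeq2 called 4 members and 0.422% of all genes. Background calls were 0.00762% higher and 0.0305% lower (0.0381% in all) without the block, and 0.213% and 0.366% (0.579% in all) with it. The median log2 change of the members was 0.23. Both knockout pools were above both control pools for 15 of 60 members and below for 7, against 13.6% and 11.6% of all genes.

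Ighv2-2 had the largest estimate in these cells. It stood at 1067 and 741 CPM in control and at 15063 and 2214 CPM in knockout pools, or 1.28% and 1.07% against 13.3% and 3.39% of Ighv counts. The groups did not overlap, but knockout pool 1 stood far above pool 2 (log2 3.26, SE 0.70, edgeR adjusted p = 0.297). Its close relative Ighv2-4 held 0.130% and 0.106% in control and 0.119% and 0.111% in knockout pools. Ighv9-2 (log2 3.23, SE 0.66, edgeR adjusted p = 0.250) and Ighv5-6 (1.54, SE 0.34, edgeR adjusted p = 0.321) had an unadjusted p close to that of Ighv2-2, and their names were chosen after their values were seen. Ighv5-4 stood at 260 and 363 CPM in control and 1035 and 960 in knockout plasmablasts (1.68, SE 0.45, edgeR adjusted p = 0.575).

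In knockout plasmablasts, where the member share was larger, some families held more in both date pairs and others in 1 pair only. Family Ighv2 went from 5.92% and 4.94% to 17.8% and 6.98%, and Ighv9 from 4.40% and 3.91% to 6.32% and 5.83%. Ighv6 was also higher within both pairs, from 8.96% and 5.63% to 10.3% and 7.37%. In the second pair Ighv5 (5.06% to 7.89%), Ighv14 (3.77% to 5.58%) and Ighv3 (5.42% to 6.66%) were higher as well, whereas in the first pair Ighv5, Ighv14 and Ighv3 were lower. Member CPM summed to 38034 and 26507 in control and 62615 and 33547 in knockout pools and overlapped, with ratios of 1.65 and 1.27 within pairs. Over 59 Ighv1 segments the median log2 change was -0.36 and 3 were called lower. Ighv1-72, among these 3, was 403 and 353 CPM in control and 80.3 and 54.5 in knockout plasmablasts. Its log2 change was -2.49 (SE 0.26, edgeR adjusted p = 0.0123, and 1.23e-05 with the block). With the most abundant segment of each pool left out, the mean member share in knockout plasmablasts was 48.7% rather than 53.4%. That segment was a member in both knockout pools, so the share had to fall. In control plasmablasts it was the member Ighv6-3 in pool 1 (5.94% of Ighv counts) and Ighv1-9, not a member, in pool 2 (11.1%). Control pool 2 had the lowest member share of all pools (38.4%).

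The Myb effect was compared between plasmablasts and GC B cells as an interaction term. Without the block no member was called by edgeR or DESeq2 (0 in each), where edgeR called 0% of all genes higher and 0.00762% lower. Lower here means a smaller log2 change in plasmablasts than in GC cells. Before adjustment 13 members had an edgeR p under 0.05, of which 12 were lower and 1, Ighv2-2, was higher. Among all genes 2.77% were lower and 0.952% higher at that limit. With the block, where 0.48% of all genes were called lower and 0.0609% higher, 2 members were called lower and 0 higher. These were Ighv2-9-1 (difference of log2 changes -1.85, SE 0.28, edgeR adjusted p = 0.0136) and Ighv9-3 (-1.27, SE 0.24, edgeR adjusted p = 0.0444). Several Ighv1 segments were called in the same direction by this fit, among them Ighv1-15 (-2.28, edgeR adjusted p = 0.00134) and Ighv1-82 (-2.52, edgeR adjusted p = 0.00436). In plasmablasts the 2 members' own changes were 0.59 (SE 0.16) and 0.33 (SE 0.17) with the block. On the scale of the Ighv total the differences were -0.85 and -0.31 (edgeR adjusted p = 0.254 and 0.659).

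Between Moz knockout and control GC B cells of day 7 no member was called without the block, and no other gene was either (0%). The member sum was 827 and 1085 CPM in control and 1210 and 2046 in knockout pools, a ratio of 1.70 without overlap (1.46 and 1.89 within pairs). Of the 58 members, 48 had an estimate above 0, the median log2 change was 0.61 (-0.01 over all genes), and 12 were higher and 2 lower at an unadjusted p under 0.05, against 1.83% and 0.571% of all genes. Both knockout pools were above both controls for 20 of 60 members and below for 4, against 13.3% and 13.4% of all genes. DESeq2 called 3 members and 0.504% of the 2184 genes for which it gave an adjusted p.

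With date pairs as a block 3 members rose, where 0.267% of all genes rose and 0.0305% fell. Their names were chosen after their values were seen. Ighv14-3 rose from 260 and 627 to 577 and 1128 CPM, 2.22 and 1.80 times within pairs (log2 1.00, SE 0.16, edgeR adjusted p = 0.0359). Ighv5-9-1 rose from 6.88 and 6.66 to 13.2 and 12.5 CPM (0.93, SE 0.14, edgeR adjusted p = 0.0309), and Ighv3-8 from 7.25 and 3.34 to 16.4 and 9.99 CPM (1.37, SE 0.21, edgeR adjusted p = 0.0408). Without the block each had an edgeR adjusted p of 1.00. Scaled to the Ighv total the median was -0.02 and no member was called (9 at an unadjusted p under 0.05 in edgeR, against 5.96% of all genes).

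In the Moz comparison the sums of plasmablast and of GC markers did not overlap between the groups, although no marker of either list was called. The plasmablast sum was 5235 and 5878 CPM in control and 6725 and 8238 in knockout pools, and 8 of 8 had an estimate above 0, although none was called (0 of 8). Of 8 GC markers all 8 had an estimate below 0 (median -0.32, 0 called), and their sum was 2211 and 2303 CPM in control and 1931 and 1811 in knockout pools, without overlap. Of 6 markers of naive follicular B cells (Fcer2a and others), 5 had an estimate above 0 (median 0.42, 0 called). Their sum was 528 and 455 CPM in control and 532 and 562 in knockout pools. The part of these marker lists in the higher member levels was not tested. The Ighv1 median was 0.44 and the kappa variable median 0.34, with 0 called in each.

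**Figure D5:**
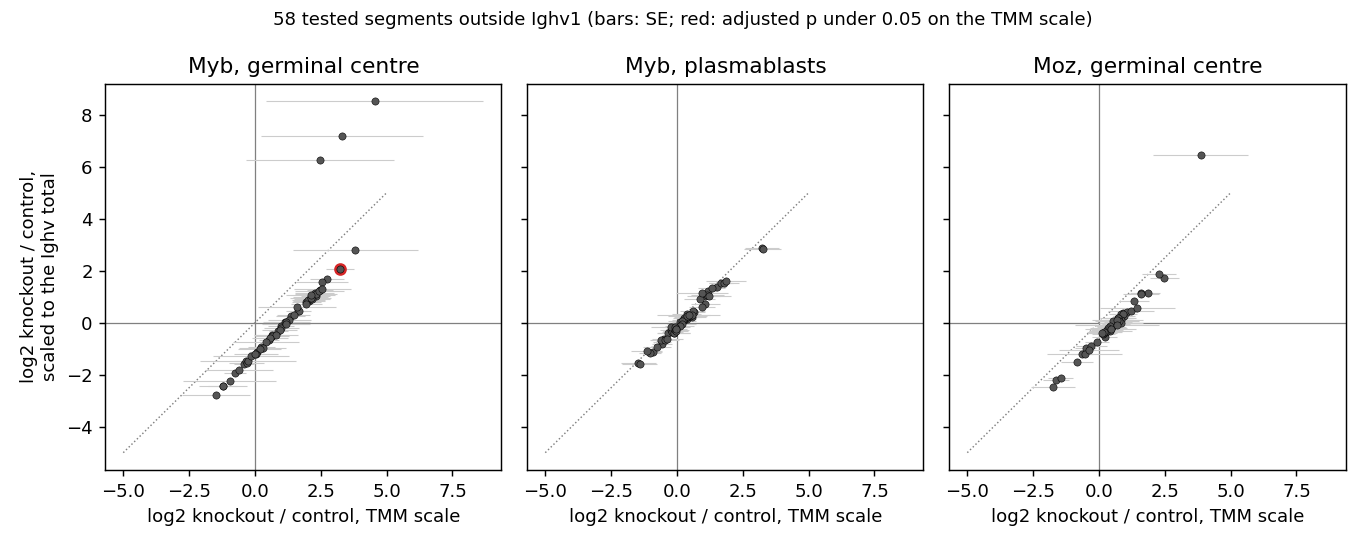
Log2 change of the 58 tested members in knockout against control pools on the TMM scale (horizontal, bars are 1 SE) and scaled to the Ighv total (vertical), for 3 comparisons; the dotted line is equality and red marks Ighv5-4. In Myb GC cells points lie below equality, as the median moves from 1.17 to -0.02; points far above it have 0 counts in a group.

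Across the 12 libraries, the genes outside the heavy chain locus whose log2 TMM CPM followed Ighv14-3 most closely were Tnfrsf17 (Pearson r 0.968), which encodes the plasma cell receptor BCMA, the lambda segment Iglv2 (0.963), Anxa6 (0.961), Arpp21 (0.956) and Ugcg (0.952). The libraries share cell type and experiment in sets, so these values describe the order plasmablasts, Moz pools, Myb GC pools and nothing finer. Tnfrsf17 was 114 to 230 CPM in plasmablasts, 7.62 to 20.7 in Moz pools and 0.342 to 0.887 in Myb GC pools.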

How the data were processed

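Gene counts were deposited by the authors as whole numbers per Entrez gene, made with featureCounts on the mm10 build, per the submitters' processing notes. The sources used here do not name the aligner, the strand setting or the rule for reads matching several genes. Lengths in bases came with the deposited counts. The library files and the series table agreed in every value (0 differed).

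Genes were filtered with filterByExpr (minimum count 10, minimum total 15), scaled by TMM and tested with edgeR 4.0.16 (robust quasi-likelihood, 6 group means, 12 libraries, Benjamini-Hochberg over 13131 genes, limit 0.05). DESeq2 1.42.0 and limma 3.58.1 were alternatives, with R 4.3.3. edgeR was tested on simulated data. Shares are counts of a segment over all Ighv counts of a library. Replicates are pools of mice, so p-values measure the spread between pools. Same-numbered pools of both genotypes share experiment dates per the labels, which pairs them; their deviations correlated over all genes with r of 0.600 (Myb GC), 0.453 (PB) and 0.361 (Moz), but over the members only with 0.0109, 0.208 and 0.165.

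Members and lists were chosen with earlier results of these data known. Named were called members (at most 12 per direction), the 10 members with the highest share, the leading member of each family, Ighv1-72, and the 5 genes outside the locus that correlated best with the most abundant member. Intervals cover counting error only. No promoter sequence of the members was used here. One gene of the GC marker list is not reported here, and sums are over the other 8.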

Additional observations from a re-analysis of the deposited data

Results flagged for a closer look

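The Myb effect on 2 members differed between plasmablasts and GC B cells by a test of the difference itself, an interaction term in edgeR with date pairs as a block: -1.85 on the log2 scale for Ighv2-9-1 (edgeR adjusted p = 0.0136) and -1.27 for Ighv9-3 (edgeR adjusted p = 0.0444). Both were higher in 2 of 2 knockout GC pools than in their date partners, at 18.0 and 8.29 against 2.51 and 2.18 CPM for Ighv2-9-1 and at 43.5 and 63.6 against 16.8 and 18.1 CPM for Ighv9-3. In plasmablasts knockout and control stood at 1506 and 677 against 870 and 517 CPM for Ighv2-9-1 and at 4459 and 2438 against 3003 and 2304 CPM for Ighv9-3. Neither difference was called without the block (edgeR adjusted p = 1.00 for each). Ighv1 segments such as Ighv1-15 and Ighv1-82 were called in the same direction with the block, so the difference was not particular to these 2 members. The blocked fit left 3 residual degrees of freedom. Groups of 2 pools allow no check for outlying pools.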

How the results depend on the processing

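Counts of called members depended on the fit in all 5 comparisons, and the cause was not tested. For Myb GC, 1 was called (0.259% of all genes), against 5 with the replicate block (2.42%), 10 scaled to the Ighv total (64.7%), 22 without the filter on low counts (1.72%), 11 with DESeq2 (1.33%), 0 with limma-voom (0.0762%) and 0 with the compared groups alone (0 of 11514 genes). For Myb plasmablasts, 0 became 13 without the filter (0.558%) and 4 with DESeq2 (0.422%). For Moz GC, 0 became 3 with the block (0.297%), 10 without the filter (0.295%) and 3 with DESeq2 (0.504%). For the difference of Myb effects, 0 became 2 with the block (0.541%) and 12 without the filter (0.729%). For plasmablasts against GC, 58 (53.2%) became 19 scaled to the Ighv total (96.5%). Leaving out a pool gave 0 to 2 calls for Myb GC (2 without knockout GC pool 2), 0 to 1 for Myb plasmablasts (1 without knockout pool 2), 0 to 2 for Moz (2 without knockout pool 1), 0 for the difference and 58 for plasmablasts against GC. The blocked fit changed calls as given and, in Myb plasmablasts, none; no block was possible for plasmablasts against GC, which share no date.

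Directions turned mainly when scaled to the Ighv total: in Myb GC Ighv6-3 (-0.59), Ighv2-2 (-0.29), Ighv14-2 (-0.94) and Ighv5-17 (-0.14); in Moz GC Ighv3-6 (-0.14), Ighv2-2 (-0.34) and Ighv14-2 (-0.54); in plasmablasts against GC Ighv14-3 (-1.74), Ighv9-3 (-0.34), Ighv3-6 (-0.38), Ighv2-2 (-1.17), Ighv10-3 (-0.91), Ighv14-2 (-1.84) and Ighv8-8 (-0.74). That scaling moved the median of all genes to -1.18 in Myb GC and -7.73 in plasmablasts against GC; there it was -0.17 under TMM and -0.06 with TMM factors from genes other than immunoglobulins. Without single pools, uncalled estimates changed sign. In Myb plasmablasts they ran from -0.090 to 0.74 for Ighv9-3, -0.24 to 1.09 for Ighv6-3, -0.36 to 0.21 for Ighv10-3 (0.13 without control pool 1), -0.25 to 0.15 for Ighv14-2 and -0.0088 to 0.91 for Ighv8-8. In Moz GC they ran from -0.72 to 1.59 for Ighv6-3, -0.88 to 0.95 for Ighv14-2 (-0.26 without control pool 1), -0.63 to 0.35 for Ighv5-17 and -0.13 to 2.05 for Ighv8-8.

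The mean member share moved by more than the SD of the pools with the most abundant segment of each pool left out in Myb control GC (47.9%), Myb knockout GC (43.2%), Myb knockout plasmablasts (48.7%) and Moz knockout (46.2%), and with counts per kb in Myb knockout GC (48.2%). In every pool of these groups the most abundant segment was a member, so leaving it out had to lower the share. Each SD is of 2 pools, and in Myb knockout GC it was only 0.391%. Single pools gave 49.3% to 54.9%, 49.1% to 49.7%, 38.4% to 45.6%, 51.3% to 55.5%, 48.4% to 69.6% and 59.9% to 67.8% in the order Myb GC, plasmablasts and Moz, control first. Diversity per kb moved by less than that SD in all 6 groups, and no pseudogene was in the table to leave out. Depth limits rare members most in Myb control GC pools, with 5088 to 5487 Ighv counts.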
